A study of Mus musculus with 12 samples.

Results

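Transcripts of 8 complement genes were followed in mouse bone marrow-derived macrophages with and without the nuclear receptor ERRα. The genes encode the 3 chains of C1q (C1qa, C1qb, C1qc), complement C3, factor B (Cfb), properdin (Cfp) and the membrane inhibitors Cd55 and Cd59a. They are 8 of 20887 genes named on the arrays and were read by 9 probes, 1 for each gene and 2 for C3. The probes were found through the transcript accession printed for each probe. The genes were chosen by name with results of these data already known, so their levels and differences are a description. An adjusted p beside one gives its standing among all 13116 genes tested and is not independent support.

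The cells came from male C57BL6 mice of 6 to 8 weeks of age, either ERRα+/+ or ERRα-/-, and were grown for 5 to 7 days with macrophage colony-stimulating factor. They received PBS, the solvent, or lipopolysaccharide (LPS), a bacterial outer membrane component sensed through TLR4, at 100 ng/mL. Crossing genotype with treatment made 4 groups, each measured on 3 arrays. Among what the sources used here do not give are the length of the LPS treatment, how the allele was made, and whether the replicates came from separate mice. The p-values therefore measure the spread between these samples, which may be technical. Replicate 1 of every group lay on 1 slide and replicates 2 and 3 on another.

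Complement is a cascade of plasma and cell surface proteins that tags and lyses microbes. C1q binds immune complexes and starts the classical pathway. All pathways converge on C3, whose cleavage leaves C3b on the target. In the alternative pathway, factor B joins C3b to form a C3 convertase that properdin stabilises. Host cells are protected by CD55, which speeds the decay of convertases, and by CD59, which blocks assembly of the membrane attack complex. Macrophages are a known local source of C1q, C3, factor B and properdin.

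On each array 45.3% to 56.7% of the probes exceeded background clearly, and no spot was saturated. All 8 complement genes were well above background on all 12 arrays, so all passed the filter on dim probes. Levels are log2 ratios of the processed signal to the 75th percentile of its own array, and they are compared between arrays for 1 gene, never between genes. Repeat spots of a probe varied by 3.79% to 4.65% on 10 arrays, but by 12.4% on replicate 2 and 8.19% on replicate 3 of the ERRα+/+ PBS group. The probe for Esrra, the gene of ERRα, read 4.39 to 4.69 in ERRα+/+ PBS, 5.87 to 6.36 in ERRα+/+ LPS, 0.145 to 2.48 in ERRα-/- PBS and 3.83 to 4.40 in ERRα-/- LPS arrays. It was lower in ERRα-/- cells, with differences of -2.85 ± 0.36 averaged over PBS and LPS (adjusted p = 0.00379) and -3.58 ± 0.51 with PBS (adjusted p = 0.0225). The PBS call was lost when replicate 2 or 3 of either PBS group was left out (adjusted p up to 0.116). With LPS the difference of -2.11 ± 0.51 missed the threshold (adjusted p = 0.202), and of the 12 arrays left out in turn, the removal of ERRα-/- PBS replicate 1 alone brought it past (adjusted p = 0.00452). The labels do not say which part was deleted, and a probe outside it would not check the genotype. All 9 macrophage markers on the arrays were well above background in every group. All 8 neutrophil markers were as well, and in bulk RNA fewer cells of a type and less RNA per cell cannot be told apart.

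**Figure D1:**
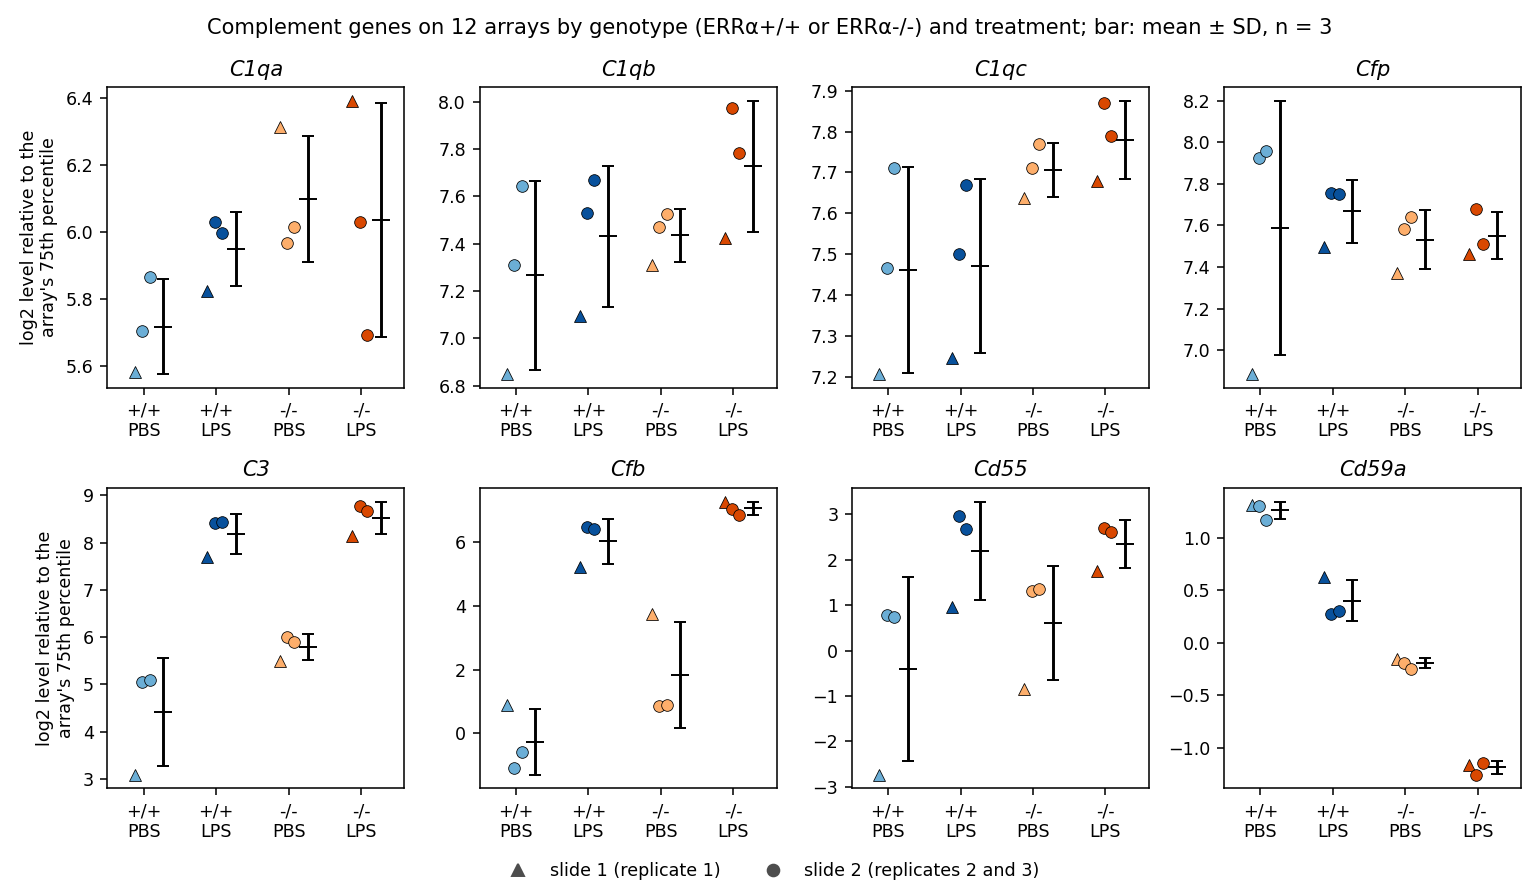
Level of each complement gene on every array (y axis, log2 ratio to the 75th percentile of the array) by genotype and treatment (x axis), with triangles for slide 1, circles for slide 2 and bars for mean ± SD of 3 arrays. The groups of Cd59a step down with no overlap, C3 and Cfb separate LPS from PBS arrays, and the groups of the C1q chains and Cfp mostly overlap.

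C3, the central component, was strongly raised by LPS in both genotypes. Its levels were 3.09, 5.04 and 5.09 in ERRα+/+ PBS replicates 1, 2 and 3, and 7.70, 8.42 and 8.44 in ERRα+/+ LPS replicates. ERRα-/- cells read 5.48, 6.00 and 5.90 with PBS and 8.14, 8.78 and 8.66 with LPS. All LPS arrays lay above all PBS arrays. Within PBS, every ERRα-/- array lay above every ERRα+/+ array, whereas the genotypes overlapped under LPS. C3 rose 13.7-fold in ERRα+/+ cells (log2 3.78 ± 0.47 SE, adjusted p = 0.000157), and 6.64-fold where ERRα was lacking (log2 2.73 ± 0.47, adjusted p = 0.00101). The second C3 probe gave log2 LPS differences of 3.56 and 2.72.

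The C3 level with PBS was 2.61-fold higher in ERRα-/- than in ERRα+/+ cells (log2 1.39 ± 0.47), which missed the threshold (adjusted p = 0.441). That difference was 2.40 on slide 1 and 0.88 ± 0.08 on slide 2 alone, where it passed (adjusted p = 0.00519). It also passed with slide as a block (adjusted p = 0.0414) but not with the replicate number as a block (adjusted p = 0.0705). Under LPS the genotype difference of C3 was 0.34 ± 0.47, with a 95% interval from -0.71 to 1.39. Averaged over both treatments it was 0.86 ± 0.34 (adjusted p = 0.403; 0.0398 with slide as a block and 0.0677 with the replicate block).

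The 250 bases before the C3 transcription start (RefSeq, GRCm38.p6, chr17:57228137-57228386, minus strand) are shown because C3 is the central component and rose with LPS in both genotypes. Capitals mark a match to the C/EBP consensus TTGCNNAA, 45 to 38 bases before the start.

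C3: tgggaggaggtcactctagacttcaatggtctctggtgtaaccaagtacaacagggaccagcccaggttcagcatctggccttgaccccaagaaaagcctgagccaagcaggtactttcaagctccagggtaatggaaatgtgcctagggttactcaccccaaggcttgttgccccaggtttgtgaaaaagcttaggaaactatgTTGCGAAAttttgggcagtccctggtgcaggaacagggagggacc

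A match to that consensus, on either strand, was present in 9.56% of 32851 mouse promoters of the same length, so the letters alone are common.

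Cfb, which encodes the protease of the alternative pathway convertase, had the largest LPS response of the 8 genes. Its levels were 0.90, -1.09 and -0.60 in ERRα+/+ PBS replicates 1, 2 and 3, and 5.22, 6.46 and 6.41 in ERRα+/+ LPS replicates. ERRα-/- cells read 3.75, 0.85 and 0.89 with PBS and 7.27, 7.04 and 6.87 with LPS. PBS and LPS arrays did not overlap in either genotype, and with PBS the slide 1 array was the highest of its group in both genotypes. Cfb rose 78.3-fold in ERRα+/+ cells (log2 6.29 ± 0.75, adjusted p = 0.000118) and 37.6-fold in ERRα-/- cells (log2 5.23 ± 0.75, adjusted p = 0.000339). The size differed between the slides, and since slide 1 held only replicate 1 of each group, slide and replicate cannot be told apart. In ERRα+/+ cells the log2 rise was 4.32 on slide 1 and 7.28 on slide 2, and in ERRα-/- cells it was 3.52 and 6.09.

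Within each replicate number, Cfb read higher in ERRα-/- than in ERRα+/+ cells under both treatments, but the genotype differences missed the threshold. With PBS the log2 difference was 2.09 ± 0.75 (adjusted p = 0.485), and the groups overlapped because ERRα+/+ replicate 1 lay above ERRα-/- replicates 2 and 3. On slide 2 alone it was 1.71 ± 0.17 (adjusted p = 0.00582), and on slide 1 it was 2.85. It missed the threshold with slide as a block (adjusted p = 0.202) and with the replicate number as a block (adjusted p = 0.282). Without ERRα+/+ PBS replicates 2 and 3 together it was 0.93. Under LPS the groups did not overlap, with a difference of 1.03 ± 0.75 (adjusted p = 0.989) that was 2.05 on slide 1 and 0.52 on slide 2. Cfb lies next to C2, which encodes the equivalent protease of the classical pathway. With LPS, C2 rose by 1.32 ± 0.35 (ERRα+/+ cells, adjusted p = 0.0114) and 1.83 ± 0.35 (ERRα-/- cells, adjusted p = 0.00181). Its ERRα+/+ call ended without ERRα+/+ PBS replicates 2 and 3 together (0.66, adjusted p = 0.324).

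Properdin, the plasma protein that stabilises the alternative pathway convertase, stayed near 1 level. Cfp read 6.88, 7.92 and 7.96 in ERRα+/+ PBS replicates 1, 2 and 3, and 7.49, 7.76 and 7.75 in ERRα+/+ LPS replicates. ERRα-/- cells read 7.37, 7.58 and 7.64 with PBS and 7.46, 7.68 and 7.51 with LPS. All 4 groups overlapped, and the lowest array was ERRα+/+ PBS replicate 1. The LPS difference was 0.08 ± 0.26 in ERRα+/+ cells (95% interval -0.49 to 0.65) and 0.02 ± 0.26 in ERRα-/- cells (-0.55 to 0.59), so changes within those bounds were not detectable with these arrays. Without ERRα+/+ PBS replicates 2 and 3 together, which leaves that group on slide 1 alone, the ERRα+/+ value was 0.78 (adjusted p = 0.0365). The genotype differences of Cfp were -0.06 with PBS and -0.12 with LPS.

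The C1q chains, whose genes C1qb, C1qc and C1qa follow each other on chromosome 4, were not called in any contrast. C1qa read 5.58, 5.71 and 5.87 in ERRα+/+ PBS replicates 1, 2 and 3, and 5.82, 6.03 and 6.00 in ERRα+/+ LPS replicates. Without ERRα it read 6.31, 5.97 and 6.01 with PBS and 6.39, 6.03 and 5.69 with LPS. C1qa thus lay higher on every ERRα-/- than on every ERRα+/+ array with PBS, by 0.38 ± 0.19 (adjusted p = 0.878), and the genotypes overlapped under LPS. C1qb read from 6.85 to 7.64 in ERRα+/+ PBS, 7.10 to 7.67 in ERRα+/+ LPS, 7.31 to 7.53 in ERRα-/- PBS and 7.43 to 7.97 in ERRα-/- LPS. C1qc read from 7.21 to 7.71, 7.25 to 7.67, 7.64 to 7.77 and 7.68 to 7.87 in the same groups. The ERRα-/- LPS arrays of C1qc all lay above the ERRα+/+ LPS arrays, by 0.31 ± 0.17 (adjusted p = 0.908).

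LPS differences of the C1q chains were small against their errors. In ERRα+/+ cells they were 0.23 ± 0.19 for C1qa, 0.16 ± 0.23 for C1qb and 0.01 ± 0.17 for C1qc. Without ERRα they were -0.06 ± 0.19, 0.29 ± 0.23 and 0.07 ± 0.17, with the C1qb value reaching 0.38 and passing on slide 2 alone (adjusted p = 0.0427). No direction is drawn for these genes or for Cfp, since quantile normalization turned the LPS difference of all 4 in ERRα+/+ cells negative. The same scaling shifted the all-gene median LPS response, which went from 0.02 to -0.14 in the ERRα+/+ and from 0.05 to -0.15 in the ERRα-/- comparison. Averaged over PBS and LPS, the genotype differences were 0.23 ± 0.13 for C1qa, 0.23 ± 0.17 for C1qb and 0.28 ± 0.12 for C1qc.

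Cd55, the convertase inhibitor also called decay accelerating factor, read higher with LPS in both genotypes. Its levels were -2.73, 0.77 and 0.74 in ERRα+/+ PBS replicates 1, 2 and 3, and 0.96, 2.96 and 2.67 in ERRα+/+ LPS replicates. Without ERRα they were -0.85, 1.32 and 1.35 with PBS and 1.75, 2.69 and 2.60 with LPS. Replicate 1, on slide 1, was the lowest array of every group, and PBS and LPS arrays did not overlap within either genotype. Cd55 rose 6.08-fold in ERRα+/+ cells (log2 2.60 ± 0.95, adjusted p = 0.0455). This call ended without any of 8 single arrays. They were ERRα+/+ PBS replicate 1 (log2 1.44, adjusted p = 0.144), ERRα+/+ LPS replicates 2 (0.142) and 3 (0.13), ERRα-/- PBS replicates 2 (0.0561) and 3 (0.0565), and ERRα-/- LPS replicates 1 (0.0502), 2 (0.0586) and 3 (0.0586). It also ended with quantile normalization (adjusted p = 0.0513) and with no filter on dim probes (adjusted p = 0.0797). The call held with slide as a block (adjusted p = 0.000581), the replicate block (0.00134), slide 2 alone (1.23e-05) and normexp background correction (0.0232). Without ERRα+/+ PBS replicates 2 and 3 together the log2 difference was 4.93.

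In ERRα-/- cells the log2 LPS difference of Cd55 was 1.74 ± 0.95 and missed the threshold (adjusted p = 0.152). With slide as a block it passed in ERRα-/- cells (adjusted p = 0.00483), as it did with the replicate number as a block (adjusted p = 0.00836). The slide-wise values were 3.69 and 2.06 on slides 1 and 2 in ERRα+/+ cells, and 2.60 and 1.32 in ERRα-/- cells. Between genotypes Cd55 overlapped under both treatments. The difference with PBS was 1.01 ± 0.95 (95% interval -1.10 to 3.13), and on slide 2 alone it was 0.58 ± 0.11 (adjusted p = 0.03). Neither the slide block (adjusted p = 0.33) nor the replicate block (adjusted p = 0.416) called this difference. With LPS it was 0.15 ± 0.95 (-1.96 to 2.26).

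Cd55b, the neighbouring paralog of Cd55, can share signal with it where their sequences are near-identical, so both are uncertain as separate genes. The Cd55b probe used rose by 2.22 ± 0.72 with LPS in ERRα+/+ cells (adjusted p = 0.0278). Leaving out ERRα+/+ PBS replicate 1 (log2 1.35, adjusted p = 0.0796), or LPS replicate 2 (0.104) or 3 (0.0898) of that genotype, ended the call. It differed by 1.78 in ERRα-/- cells (adjusted p = 0.062). Another Cd55b probe gave only 0.59 and 0.28.

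The promoter of Cd55 (RefSeq, GRCm38.p6, chr1:130462745-130462994, minus strand) is shown beside that of C3, since both genes read higher with LPS. It held 64% G and C, against 52% for C3 and a median of 52.4% over all promoters, and none of the 8 motifs searched.

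Cd55: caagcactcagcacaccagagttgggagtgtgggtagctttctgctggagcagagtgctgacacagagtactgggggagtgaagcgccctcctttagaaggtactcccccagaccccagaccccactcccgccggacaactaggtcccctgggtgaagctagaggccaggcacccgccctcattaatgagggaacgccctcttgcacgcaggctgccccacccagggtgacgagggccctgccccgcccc

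The motifs searched on both strands in the 6 promoters found, those of C3, Cd55, Cd59a, C1qb, C1qc and Cfp, were NF-kB, C/EBP (TTGCNNAA), AP-1 (TGANTCA), the interferon-stimulated response element, the STAT element GAS (TTCNNNGAA), PU.1 (AGGAAGT), the ERR element (TNAAGGTCA) and the TATA box (TATAAA). All promoters together held these in 7.25%, 9.56%, 6.75%, 2.98%, 7.02%, 7.69%, 1.14% and 12.4% of cases. C1qb and C1qc each held a PU.1 match, 53 to 47 and 195 to 189 bases before the start, and C1qc an NF-kB match 41 to 32 bases before it. Cfp held none of the 8. No ERR element, AP-1, GAS or TATA match lay in the 6 windows, which says nothing of these factors.

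Cd59a, which encodes the main mouse inhibitor of the membrane attack complex, was lower with LPS and lower again in ERRα-/- cells. Its levels were 1.32, 1.30 and 1.17 in ERRα+/+ PBS replicates 1, 2 and 3, and 0.62, 0.27 and 0.30 in ERRα+/+ LPS replicates. In ERRα-/- cells they were -0.16, -0.19 and -0.25 with PBS and -1.16, -1.26 and -1.15 with LPS. The order was ERRα+/+ PBS, ERRα+/+ LPS, ERRα-/- PBS and ERRα-/- LPS, and no neighbours in that order overlapped. PBS-treated ERRα-/- cells thus read below LPS-treated ERRα+/+ cells.

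In numbers, LPS lowered Cd59a 1.82-fold in ERRα+/+ cells (log2 -0.86 ± 0.14, adjusted p = 0.000634) and 1.99-fold in ERRα-/- cells (log2 -0.99 ± 0.14, adjusted p = 0.00026). Against ERRα+/+ cells, ERRα-/- cells had 2.75-fold lower Cd59a with PBS (log2 -1.46 ± 0.14, adjusted p = 0.00331) and 3.01-fold lower with LPS (log2 -1.59 ± 0.14, adjusted p = 0.00256). The average over both treatments was -1.52 ± 0.10 (adjusted p = 0.000153). These 5 calls held without each array in turn, with a highest adjusted p of 0.0378. On slide 1 the genotype difference was -1.47 with PBS and -1.79 with LPS, and on slide 2 it was -1.45 and -1.49.

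The promoter of Cd59a (RefSeq, GRCm38.p6, chr2:104095551-104095800, plus strand) is shown because this gene alone of the 8 was called between genotypes. Capitals mark a match to the interferon-stimulated response element, 187 to 178 bases before the start.

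Cd59a: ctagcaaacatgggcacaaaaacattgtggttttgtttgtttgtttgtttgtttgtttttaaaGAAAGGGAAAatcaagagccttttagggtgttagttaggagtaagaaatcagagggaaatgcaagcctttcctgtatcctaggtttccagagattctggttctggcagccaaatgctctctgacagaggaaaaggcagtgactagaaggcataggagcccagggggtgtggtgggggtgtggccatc

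Such a match was present in 2.98% of all promoters.

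Markers of other cells moved in part with the groups. The summed linear level of 7 stromal markers, 6 of them above background in each group, was 4.98 to 10.2 in ERRα+/+ PBS and 3.03 to 3.56 in ERRα-/- PBS arrays, and 10.6 to 15.8 in ERRα+/+ LPS and 6.21 to 12.1 in ERRα-/- LPS arrays. The higher sums with LPS came with 1 gene, Pdgfrb, which rose by 5.35 in ERRα+/+ cells (adjusted p = 1.9e-05) and 5.29 without ERRα (adjusted p = 2.28e-05). Without Pdgfrb, a choice made after seeing the data, the 6 others summed to 4.81 to 10.0 in ERRα+/+ PBS, 4.28 to 7.10 in ERRα+/+ LPS, 2.95 to 3.41 in ERRα-/- PBS and 2.48 to 4.70 in ERRα-/- LPS arrays. With PBS the stromal sum was thus lower on every ERRα-/- than on every ERRα+/+ array with or without Pdgfrb, as Cd59a was. The summed level of 4 erythroid markers was 3.04 to 4.08 and 1.27 to 1.66 in ERRα+/+ cells with PBS and LPS, and 2.08 to 2.57 and 0.679 to 1.20 in ERRα-/- cells. Klf1, which encodes an erythroid transcription factor, was not well above background on any array. The summed level of 8 neutrophil markers was 442 to 589, 418 to 778, 379 to 489 and 597 to 664 in ERRα+/+ PBS, ERRα+/+ LPS, ERRα-/- PBS and ERRα-/- LPS. The sum of 6 dendritic cell markers was higher with LPS, as C3 and Cfb were, at 1.60 to 3.38 and 7.49 to 8.55 in ERRα+/+ PBS and LPS arrays and 0.684 to 5.87 and 6.38 to 22.3 in ERRα-/- arrays. Of the 7 listed, 4 were well above background in ERRα+/+ and 5 in ERRα-/- groups, and Xcr1 on no array. Siglech, which lacks a mean for ERRα+/+ PBS, is not in the sum. It read 8.13, 7.86 and 8.26 in ERRα+/+ LPS, ERRα-/- PBS and ERRα-/- LPS. Its LPS difference was 1.28 in ERRα+/+ cells, from the PBS arrays with a value, and 0.39 in ERRα-/- cells. In ERRα+/+ and ERRα-/- cells the LPS differences were 6.25 and 6.63 for Zbtb46, and 1.85 and 3.11 for Ccr7. They were 0.23 and 0.98 for Clec9a, -0.10 and -0.11 for Flt3, and -2.33 and -0.87 for Cd209a. Sums of 7 lymphocyte markers lay between 1.48 and 7.40 and of 5 mast cell markers between 1.67 and 4.13 in all groups. The part of these cells in the values of Cd59a, C3 and Cfb was not tested.

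The probe of Cd59b, the neighbouring paralog of Cd59a, was dim. It was well above background on 1 of 3 ERRα+/+ PBS arrays, no LPS array and all 3 ERRα-/- PBS arrays. In ERRα-/- cells the limma difference of Cd59b with LPS was -2.26 ± 0.60 (adjusted p = 0.00941), from LPS values not well above background. Its fall was at least 1.58-fold, a bound without a test of its own. This bound sets the PBS mean against the lowest level of a probe well above background on each LPS array. The call ended with normexp background correction (adjusted p = 0.739) and on slide 2 alone (adjusted p = 0.0769).

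**Figure D2:**
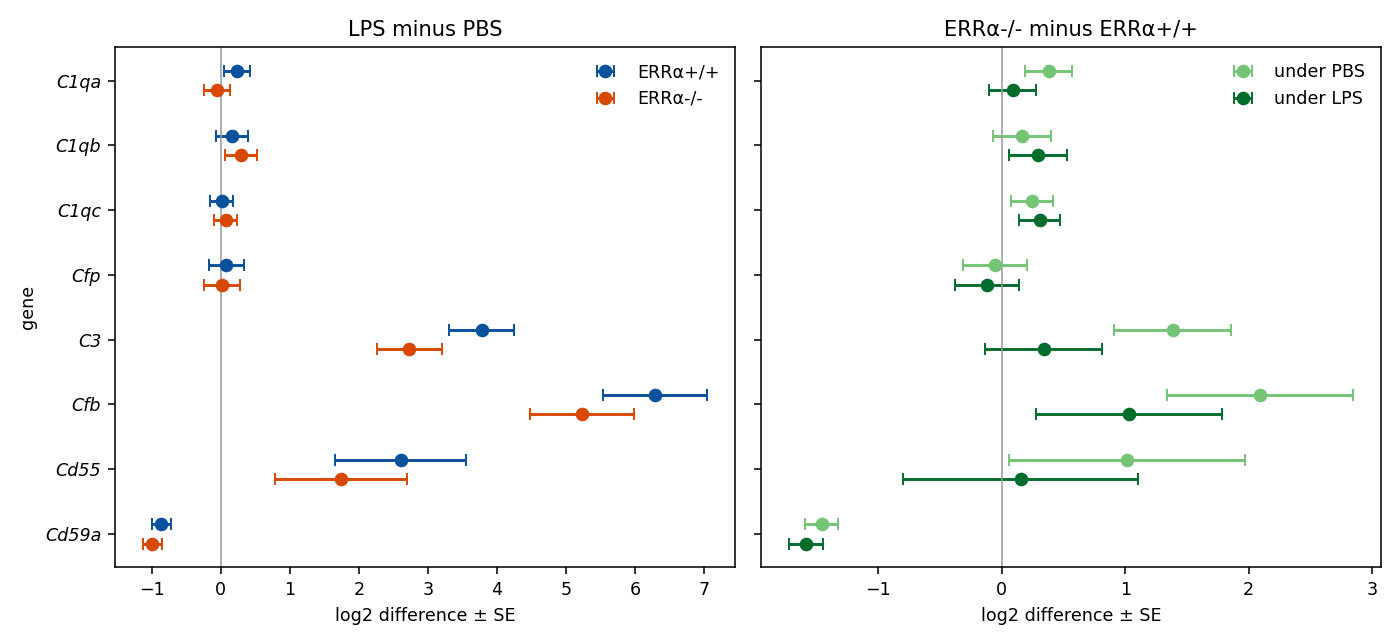
Log2 difference ± SE (x axis) of each complement gene (y axis) between LPS and PBS in each genotype (left) and between genotypes under each treatment (right), from a limma fit with 3 arrays per group. Cfb and C3 stand far to the right for LPS in both genotypes, and Cd59a is to the left of 0 in both panels.

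Counted together, 3 of the 8 genes rose with LPS in ERRα+/+ cells (C3, Cfb and Cd55) and 1 fell (Cd59a), where 45.9% of all genes tested were called, 22.2% higher and 23.7% lower. In ERRα-/- cells 2 rose (C3 and Cfb) and 1 fell (Cd59a), against 50.4% of all genes, 25.1% higher and 25.3% lower. The share of complement genes called was thus near the background. The median LPS difference of the 8 was 0.20 in ERRα+/+ and 0.18 in ERRα-/- cells, beside 0.02 and 0.05 over all genes. LPS and PBS groups did not overlap for 4 of the 8 in each genotype, against 53.9% of all genes in ERRα+/+ and 59.6% in ERRα-/- cells.

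Between genotypes few genes were called. Cd59a was the 1 of 8 called with PBS, where 0.427% of all genes were called (0.358% lower), and again the 1 of 8 with LPS, where 0.130% were (0.0534% lower). Averaged over both treatments it was also the 1 of 8, against 1.36% of all genes (0.968% lower). Nothing is read from these counts, since Cd59a was chosen with its values known. The median genotype difference of the 8 was 0.31 with PBS, 0.22 with LPS and 0.25 on average, beside -0.02, -0.01 and -0.01 over all genes. Groups did not overlap for 3 of 8 with PBS (C1qa, C3, Cd59a) against 14.2% of all genes. The contrasts under PBS and LPS share arrays with the LPS contrasts, so these counts are not independent of each other.

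With the slide as a block 2 of the 8 were called with PBS (C3 and Cd59a), where 2.12% of all genes were. On slide 2 alone 4 were (C3, Cfb, Cd55 and Cd59a), where 8.99% were. Averaged over treatments, the slide block called 2 (C3 and Cd59a) and slide 2 alone 4 (C3, Cfb, Cfp and Cd59a), against 4.95% and 19.2% of all genes. For LPS in ERRα-/- cells slide 2 alone called 5 (C3, Cfb, Cd55, Cd59a and C1qb), where 73.0% of all genes were called.

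**Figure D3:**
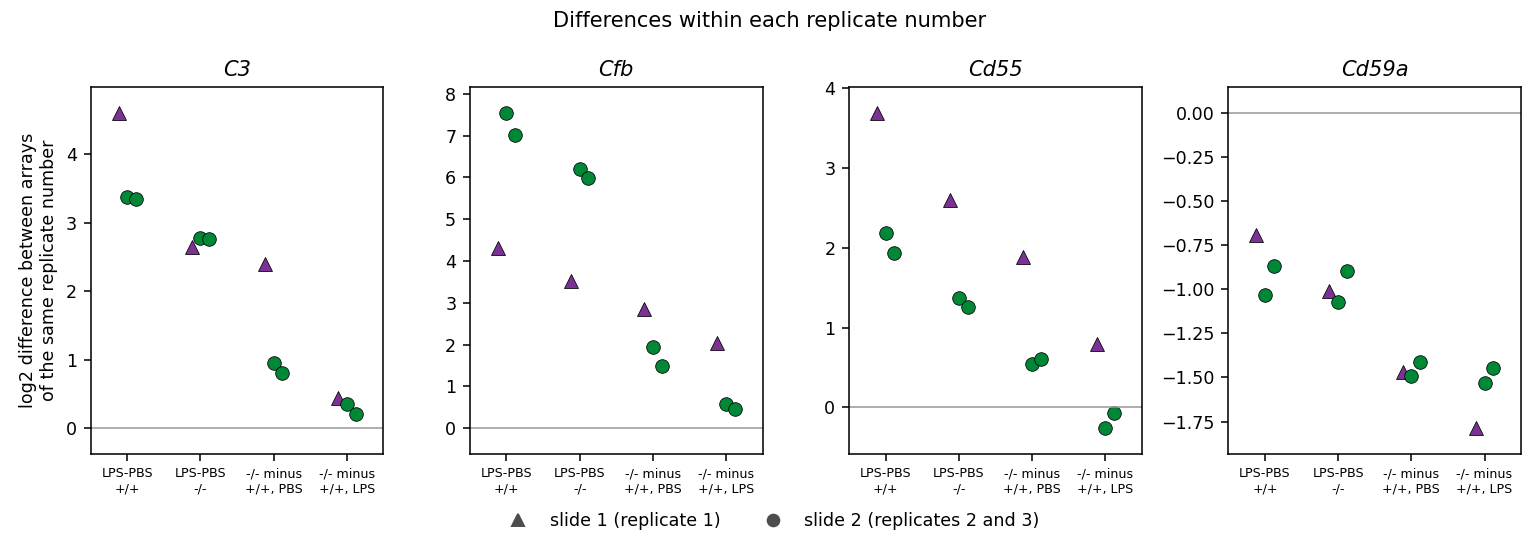
Log2 differences (y axis) between arrays of the same replicate number for C3, Cfb, Cd55 and Cd59a in 4 contrasts (x axis), with triangles for slide 1 and circles for slide 2. Slide 1 stands apart for Cfb, by 4.32 against 7.28 for LPS in ERRα+/+ cells, while Cd59a is below 0 at every point.

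Whether the LPS response itself differed between genotypes was tested by the difference of the log2 responses, ERRα-/- minus ERRα+/+. Limma called 0 of the 8 genes and 0% of all genes, and an unadjusted p under 0.05 was reached by 0 of the 8 and by 292 of 13116 genes (2.23%). C3 differed by -1.05 ± 0.67 (95% interval -2.53 to 0.44), Cfb by -1.06 ± 1.07 (-3.42 to 1.30) and Cd55 by -0.86 ± 1.35 (-3.85 to 2.13). These intervals leave room for responses of unlike size, and on slide 2 alone the values were -0.59 (adjusted p = 0.0513), -1.19 (0.0541) and -0.74 (0.0584). Cd59a differed by -0.13 ± 0.19 (-0.56 to 0.30), and the sign turned to 0.19 with normexp background correction.

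Of 47 other genes of the pathway, 46 were on the array and 23 were tested. Those were 6 of 15 recognition and classical or lectin pathway genes, 1 of 8 alternative and terminal pathway genes, 9 of 9 receptors and 7 of 15 regulators. Among the genes that could not be tested, the terminal pathway genes Hc, which encodes C5, C6, C8a and C8b, and the inhibitors Cfi and C4bp were well above background on no array. With LPS 5 of the 23 rose and 3 fell in ERRα+/+ cells, and 6 rose and 3 fell in ERRα-/- cells, with medians of -0.12 and -0.06. Over all genes 22.2% rose and 23.7% fell in ERRα+/+ cells, and 25.1% rose and 25.3% fell in ERRα-/- cells. The share called among the 23 was thus not above that of all genes, and the counts by class below are parts of it. The regulators Cd55b and Cd59b are described with their paralogs.

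Among recognition and early pathway genes, 2 of 6 rose in ERRα+/+ cells (C1ra and C2) and 3 of 6 in ERRα-/- cells (with C4b), and none fell. C1ra, a protease of the C1 complex, rose by 2.45 ± 0.37 (ERRα+/+, adjusted p = 0.000515) and 2.37 ± 0.37 (ERRα-/-, adjusted p = 0.000554). C4b, which encodes C4, whose fragment forms part of the classical convertase, rose by 1.33 ± 0.33 in ERRα-/- cells (adjusted p = 0.00706) and differed by 0.62 in ERRα+/+ cells (adjusted p = 0.152).

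Among receptors, 1 of 9 rose and 3 fell in ERRα+/+ cells, and 1 rose and 2 fell in ERRα-/- cells. C5ar2, a receptor of C5a, read 3.17, 3.02 and 2.89 in ERRα+/+ PBS and 0.17, -0.55 and -0.26 in ERRα+/+ LPS replicates 1, 2 and 3. C5ar2 fell by 3.24 ± 0.19 (ERRα+/+, adjusted p = 1.74e-06) and fell by 2.58 ± 0.19 (ERRα-/-, adjusted p = 6.45e-06). The other C5a receptor gene, C5ar1, rose by 0.69 ± 0.15 and 1.04 ± 0.15. Cd93, a surface protein first described as a C1q receptor, fell by 1.02 ± 0.16 (ERRα+/+, adjusted p = 0.000612) and fell by 0.78 ± 0.16 (ERRα-/-, adjusted p = 0.0025). Cr2, a receptor of C3 fragments, fell by 1.66 ± 0.33 in ERRα+/+ cells (adjusted p = 0.00233), with 2 of 3 LPS arrays above background. Removing ERRα+/+ PBS replicates 2 and 3 together ended that call (adjusted p = 0.0993).

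Among regulators, 2 of 7 rose in ERRα+/+ cells (Cd55b and C1qbp), and 2 rose (Serping1 and Cr1l) and 1 fell (Cd59b) in ERRα-/- cells. Serping1, the C1 inhibitor gene, rose by 1.16 ± 0.25 with LPS in ERRα-/- cells (adjusted p = 0.00319) and differed by 0.21 ± 0.25 in ERRα+/+ cells (adjusted p = 0.518). The difference of these responses was 0.95 ± 0.35 and was not called (adjusted p = 1). C1qbp, the gene of a C1q-binding mitochondrial protein, rose by 0.44 in ERRα+/+ cells (adjusted p = 0.0275). Leaving out ERRα+/+ PBS replicate 2 (0.102) or 3 (0.0658), or ERRα+/+ LPS replicate 2 (0.0777) or 3 (0.0933), ended that call. Cr1l, which encodes the convertase inhibitor Crry, rose by 0.47 in ERRα-/- cells (adjusted p = 0.0432). This rise lost its call without any of 9 arrays, all but ERRα+/+ PBS replicate 1, ERRα+/+ LPS replicate 1 and ERRα-/- LPS replicate 1 (adjusted p up to 0.162).

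**Figure D4:**
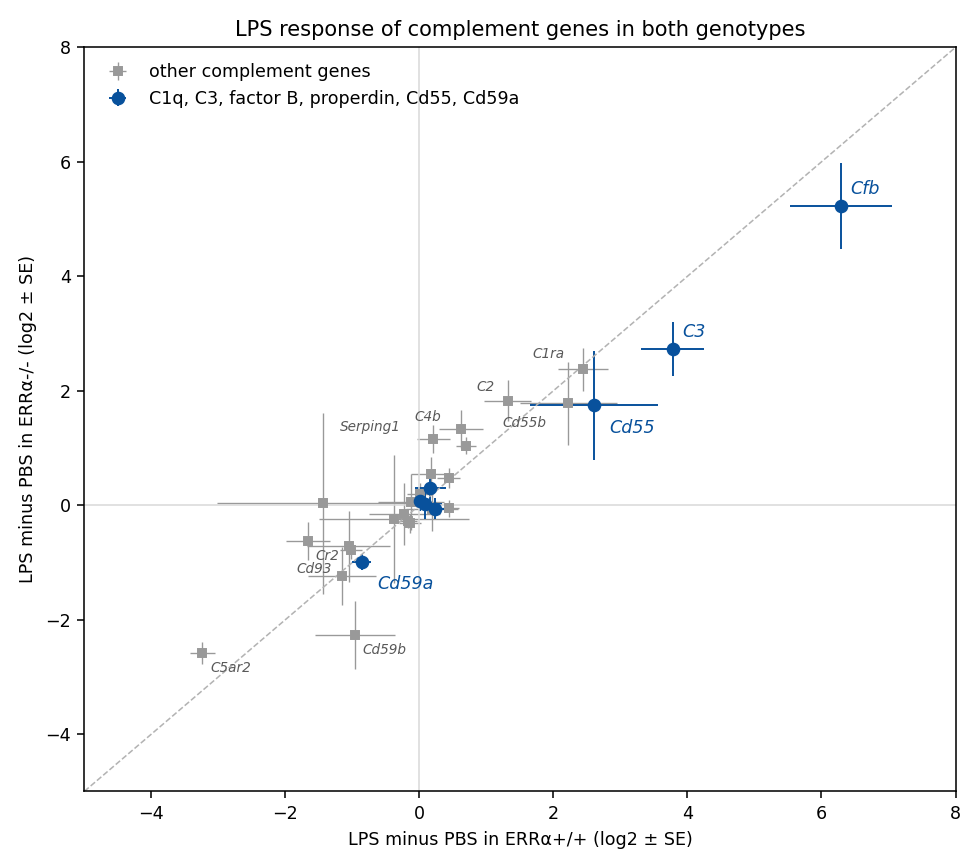
Log2 LPS response ± SE in ERRα-/- cells (y axis) against that in ERRα+/+ cells (x axis) for the 8 complement genes (circles) and 23 other tested genes of the pathway (squares), with equality as a dashed line. Cfb, C3, Cd55 and C1ra lie in the upper right, and Cd59a, Cd93 and C5ar2 in the lower left.

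Between genotypes 0 of the 23 other genes were called by limma with PBS (8 at an unadjusted p under 0.05) or with LPS (3 at an unadjusted p under 0.05). Over all genes, 6.57% and 6.24% reached that unadjusted p. With the replicate number as a block 6 of the 23 were called with PBS and 3 with LPS, where 1.47% and 1.01% of all genes were. Averaged over both treatments 1 was higher and 2 were lower in ERRα-/- cells, and 6 in all were called with the replicate block, where 3.81% of all genes were. Clu, which encodes the fluid-phase inhibitor clusterin, was lower by 1.40 ± 0.21 (adjusted p = 0.00953), a call kept without each array in turn. It read 2.71, 2.41 and 1.73 in ERRα+/+ PBS and 1.21, 0.32 and 0.56 in ERRα-/- PBS replicates 1, 2 and 3, with no overlap. Serping1 was lower by 0.88 ± 0.17 (adjusted p = 0.0395) and C4b higher by 1.22 ± 0.23 (adjusted p = 0.0337). The Serping1 call ended without any of 9 arrays, all but ERRα+/+ PBS replicate 3, ERRα-/- LPS replicate 1 and ERRα-/- LPS replicate 2 (adjusted p up to 0.117). The C4b call ended without any of 10 arrays, all but ERRα-/- PBS replicate 1 and ERRα-/- LPS replicate 1 (adjusted p up to 0.102). The stromal marker sums given beside Cd59a were lower with PBS in ERRα-/- cells too, and their part in Clu and Serping1 was not tested.

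Likeness of pattern was measured as the root mean square difference between the centred log2 values of 2 genes over the 12 arrays. Among the genes most like Cd59a were Tspan18 (0.37) and Unc13b (0.40), where the values of Cd59a had an SD of 0.90. For C3 they were Txlnb (0.34), Fam89a (0.34) and Irgm2 (0.37), with an SD of 1.78. For Cfb they were Apol9b (0.36), Oasl1 (0.53) and Slfn1 (0.58), with an SD of 3.12, and for Cd55 Cebpd (0.32), Cd55b (0.37) and Rtn1 (0.46), with an SD of 1.58. The other members moved little, and since the measure was not scaled, the genes nearest to them had to move little too. C1qa was closest to Ppp1r18 (0.12), Ttc16 (0.14) and Cd4 (0.17), and Cfp to Msantd1 (0.11), Gm2696 (0.13) and Srsf9 (0.14). C1qb was closest to the ribosomal protein genes Rpl27 (0.10), Rpl10 (0.11) and Rps23 (0.12), and C1qc to Rpl17 (0.08), Fkbp2 (0.08) and Rpl32l (0.10). Among the 8, the closest pair was C1qb and C1qc (0.14), and the farthest was Cfb and Cd59a (3.79). All these distances share the slide and the LPS treatment of the arrays, and being unscaled they depend on how far each gene moved.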

How the data were processed

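RNA was isolated with Trizol and Cy3-labelled (Low Input Quick Amp) for 1-colour Agilent arrays, per the labels' protocols. Agilent Feature Extraction produced the deposited intensity values, in version 11.5.1.1 per the file headers and 9.3.2.1 per the submitters' processing notes. This processed signal was background-subtracted within each array and not normalized between arrays, and the deposited value table equalled it. Flags of 0 or 1 were also read, per the file headers.

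Control and non-uniform spots were dropped and spots averaged per probe. Signals were taken as log2 and each array's 75th percentile was subtracted. Accessions named 27509 of 55681 probes through RefSeq. Probes had to be well above background on every array of some group, and the brightest probe stood for its gene. Limma 3.58.1 (R 4.3.3, with the data.table package in version 1.17.8) was fitted with 1 mean per group and Benjamini-Hochberg adjustment over 13116 genes, with calls at an adjusted p under 0.05, and was tested on simulated data. The number of arrays limits the precision. Figures were drawn with matplotlib 3.10.9 in Python 3.11.15.

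Same-numbered arrays deviated together (18 correlations, 0.143 to 0.784). They also shared a slide, which was slide 1 for replicate 1 and slide 2 for replicates 2 and 3. The deposited files hold no mean signal, so normexp (offset 50) used the median signal and background. The members, lists and tests were chosen with earlier results of these data known. Named were all 8 members, Esrra, up to 6 called other complement genes per contrast by size (up to 3 more of the opposite direction), and the 3 genes most like each member, of which 1 is not reported here. Genes outside this rule, C5ar1, C1qbp, Cr1l and those listed as not tested, were named after their values were seen, as was Cd55b in ERRα-/- cells. Promoters came from RefSeq.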

Additional observations from a re-analysis of the deposited data

How the results depend on the processing

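The calls of C3 and Cfb with LPS, and those of Cd59a in 5 contrasts, kept their direction and side of the threshold under normexp, quantile normalization, the deposited table, no filter on dim probes, the mean of all probes, both blocks, slide 2 alone, each array left out, and the removal of ERRα+/+ PBS replicates 2 and 3 together, an alternative chosen after seeing the data because of their spot spread. Where a value below moved, the cause was not tested.

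Counts of genes called moved mainly with the slide and replicate settings. Of the 8 members, slide 2 alone called 5 for LPS in ERRα-/- cells. Between genotypes with PBS, the slide block called 2, slide 2 alone 4 and the removal of the pair 2, and averaged over treatments they called 2, 4 and 2. Of the 23 other genes, slide 2 alone called 13 and 14 for LPS in ERRα+/+ and ERRα-/- cells. Over all genes it called 71.4% and 73.0%. With PBS between genotypes, the slide block called 6, the replicate block 6 and slide 2 alone 9 (0 to 2 without each array in turn). Over all genes these 3 settings called 2.12%, 1.47% and 8.99%. With LPS they called 4, 3 and 8, against 1.61%, 1.01% and 15.9% of all genes. On average they called 8, 6 and 13, against 4.95%, 3.81% and 19.2% of all genes. Normexp and no filter called 1 each on average (1 to 4 without each array in turn). The replicate block changed the call of Cd55 for LPS in ERRα-/- cells and of no other member. The averaged genotype calls of C4b and Serping1 also ended with normexp, no filter and the removal of the pair, and that of Serping1 with quantile normalization.

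Reversals touched only values that were not called. With quantile normalization the LPS differences in ERRα+/+ cells were -0.25 (C1qa), -0.23 (C1qb), -0.38 (C1qc) and -0.29 (Cfp), and in ERRα-/- cells -0.18 (C1qb), -0.38 (C1qc) and -0.47 (Cfp). With normexp they were -0.029 (C1qc) and -0.047 (Cfp) in ERRα+/+ and -0.013 (C1qc) and -0.081 (Cfp) in ERRα-/- cells. On slide 2 they were -0.004 (C1qc) and -0.19 (Cfp) in ERRα+/+ and -0.018 (Cfp) in ERRα-/- cells. The genotype difference with LPS became -0.014 for C1qa with quantile normalization, and -0.15 for C1qa and -0.17 for Cd55 on slide 2. Without the pair, Cfp gave 0.65 between genotypes with PBS and 0.27 on average, and the difference of the responses was -0.29 (C1qb), -0.19 (C1qc) and 0.10 (Cfb). That difference was 0.17 for Cfp on slide 2 and 0.19 for Cd59a with normexp.

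Leaving out each array in turn, LPS differences in ERRα+/+ cells spanned -0.046 to 0.35 (C1qb), -0.12 to 0.14 (C1qc) and -0.27 to 0.26 (Cfp), and in ERRα-/- cells -0.24 to 0.11 (C1qa) and -0.063 to 0.071 (Cfp). Genotype differences with PBS spanned -0.042 to 0.36 (C1qb), -0.41 to 0.13 (Cfp) and -0.15 to 1.74 (Cd55), with LPS -0.089 to 0.26 (C1qa) and -0.47 to 0.53 (Cd55), and on average -0.26 to 0.005 (Cfp). Differences of the responses spanned -0.060 to 0.34 (C1qb), -0.062 to 0.19 (C1qc), -0.25 to 0.29 (Cfp) and -1.59 to 0.30 (Cd55). With 3 arrays per group on 2 slides, differences of Cd55 and Cfb larger than their errors could miss the threshold. Examples were 2.09 ± 0.75 for Cfb between genotypes with PBS (limma adjusted p = 0.485) and 1.74 ± 0.95 for Cd55 with LPS in ERRα-/- cells (0.152). The 95% interval of that Cd55 difference ran from -0.37 to 3.86. Cd59b lay near the background.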
